A study of Homo sapiens with 6 samples.

Results

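The integrin chains described here are 10 genes of the human integrin family, the α chains ITGAV, ITGA1, ITGA2, ITGA3, ITGA5 and ITGAM and the β chains ITGB1, ITGB3, ITGB5 and ITGB6. They were chosen by name, with earlier results of these data known, as chains other than ITGA6 and ITGB4, which build the hemidesmosome. All 10 were measured. They are not all such chains, since ITGB8, ITGAX, ITGA4, ITGAE, ITGA7 and ITGA2B were measured too and are described apart. The count table holds 19469 genes, 18 of which encode integrin chains, out of 26 such genes looked for. ITGB2, ITGB7, ITGAD, ITGAL, ITGA8, ITGA9, ITGA10 and ITGA11 were not found in it.

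Bulk RNA was sequenced from L3.6pl, an established human pancreatic cancer line of adenosquamous type taken from a lymph node metastasis, whose name the cell line label gives as L6.6pl. Untreated cells grown in DMEM with FBS were sorted by FACS with an antibody to surface L1CAM, an adhesion molecule, and 7AAD was used to leave out dead cells. The fraction labelled L1CAM_POSITIVE (L1high) and the fraction labelled L1CAM_NEGATIVE (L1low) were sequenced in 3 libraries each. No label says that the 3 libraries of a fraction came from separate cultures or sorts, so p-values measure the spread between these libraries, which may be technical.

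An integrin at the cell surface is a heterodimer of an α and a β chain, and each pair has its own ligands. ITGAV joins ITGB3, ITGB5, ITGB6, ITGB8 or ITGB1 in receptors for matrix proteins and latent TGF-β that carry the RGD motif, while ITGB1 joins many α chains, among them the collagen receptors ITGA1 and ITGA2, the laminin receptor ITGA3 and the fibronectin receptor ITGA5. ITGAM is known as a leukocyte chain that pairs with ITGB2, and L1CAM itself can bind αv and α5 integrins.

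Transcripts of 4 of the 10 chains were higher in L1low cells (ITGB3, ITGB6, ITGB1 and ITGA3), those of ITGAM and ITGA1 were lower, and the other 4 did not pass the test. The 6 calls stand beside a background of 7.95% of all genes tested, or 4.58% called higher and 3.37% called lower. The 10 chains and the lists below were chosen with earlier results of these data known. Their counts are therefore no independent test against this background. Without L1high replicate 1 or without L1low replicate 2 the number called higher was 2, ITGB3 and ITGB6, and the number of all genes called went from 1548 to 674 and 627. A call is an adjusted p under 0.05 from edgeR's quasi-likelihood test on the counts, with Benjamini-Hochberg adjustment over all genes, and every log2 fold change below is L1low against L1high from this fit. In 8 chains the ranges of both fractions did not overlap (5 higher and 3 lower), where 28.8% of all genes showed no overlap. Levels are given as CPM, in which library totals and TMM factors set the scale. The totals ran from 16334610 to 21064685 counts, and each of the 10 chains exceeded 1 CPM in at least 2 libraries of each fraction. The sorting marker L1CAM stood at 84.0, 69.8 and 89.6 CPM in the L1high libraries and at 17.7, 23.7 and 19.99 CPM in the L1low libraries (log2 fold change -1.99, standard error 0.12, adjusted p = 4.69e-06). In bulk RNA, fewer cells that express a gene and less RNA of it per cell cannot be told apart.

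**Figure D1:**
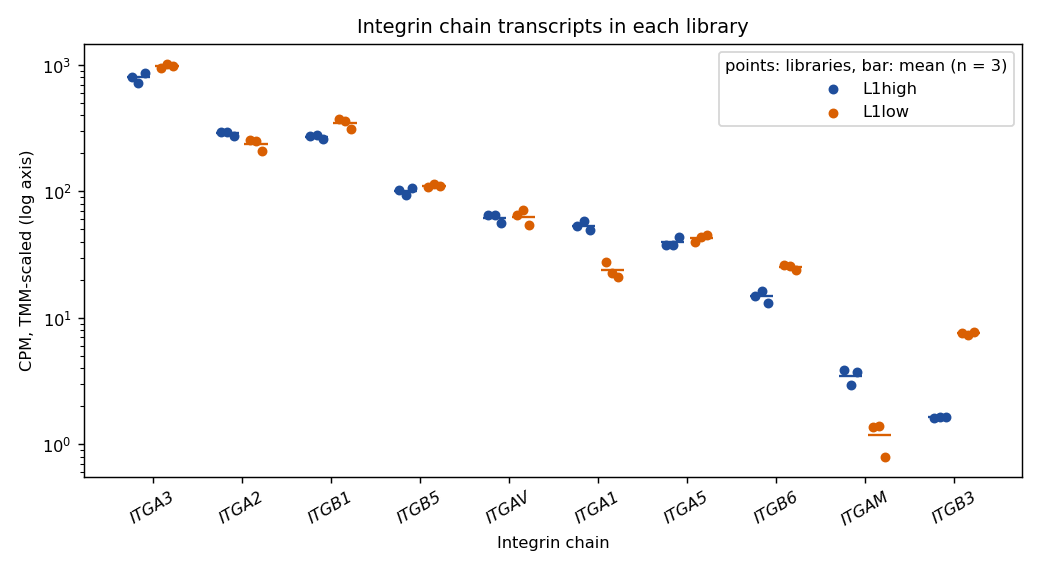
Level of each of the 10 integrin chains as TMM-scaled CPM (log axis) in the 3 L1high (blue) and 3 L1low (orange) libraries, with each point a library and each bar the mean of 3. ITGB3 and ITGB6 lay wholly higher in L1low cells and ITGA1 and ITGAM wholly lower, while ITGAV and ITGA5 overlapped.

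The sequence before the start site is shown for ITGB6, for the collagen receptor neighbours ITGA1 and ITGA2, whose levels both lay lower in L1low cells, and for ITGAM, since these chains differ in direction and in base composition there. RefSeq promoters on GRCh38.p14 matched 8 of the 10 chains, and ITGB3 and ITGA3 have no entry. Each sequence is the 250 bases before the RefSeq start, read 5′ to 3′ along the gene: ITGB6 at chr2:160200273-160200522 on the minus strand, ITGA1 at chr5:52787666-52787915, ITGA2 at chr5:52989102-52989351 and ITGAM at chr16:31259725-31259974, these 3 on the plus strand. Capitals mark matches to a motif on either strand.
ITGB6: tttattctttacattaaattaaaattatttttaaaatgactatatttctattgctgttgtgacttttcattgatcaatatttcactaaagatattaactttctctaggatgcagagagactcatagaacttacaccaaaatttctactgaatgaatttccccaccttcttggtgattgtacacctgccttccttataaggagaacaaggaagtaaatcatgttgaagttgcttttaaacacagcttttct
ITGA1: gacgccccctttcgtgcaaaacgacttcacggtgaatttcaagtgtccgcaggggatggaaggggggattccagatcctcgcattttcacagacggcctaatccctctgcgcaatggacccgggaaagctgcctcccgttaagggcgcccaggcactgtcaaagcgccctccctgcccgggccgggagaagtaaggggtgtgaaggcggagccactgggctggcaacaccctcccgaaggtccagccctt
ITGA2: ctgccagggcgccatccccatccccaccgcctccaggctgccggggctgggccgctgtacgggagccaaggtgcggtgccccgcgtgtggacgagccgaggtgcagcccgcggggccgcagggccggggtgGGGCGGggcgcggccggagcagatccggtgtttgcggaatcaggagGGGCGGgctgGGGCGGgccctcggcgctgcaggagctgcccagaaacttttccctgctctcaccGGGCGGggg
ITGAM: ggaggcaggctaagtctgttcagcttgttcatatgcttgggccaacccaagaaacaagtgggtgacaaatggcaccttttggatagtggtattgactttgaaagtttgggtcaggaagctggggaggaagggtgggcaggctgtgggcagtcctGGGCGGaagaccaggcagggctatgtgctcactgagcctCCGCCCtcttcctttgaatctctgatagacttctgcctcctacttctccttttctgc
The motifs searched were the AP-1 site (TGANTCA), the GC box (GGGCGG), the TATA box (with the letters TATAAA) and the TEAD site (as GGAATG), and none of the matches shown overlap each other. ITGA2 held 4 GC boxes, which began 119, 73, 63 and 9 bases before the start, and ITGAM held 2, which began at 96 and 57 bases. The ITGA1 and ITGB6 windows held no match to any of the motifs. Over all 35116 promoters, windows of the same length held a GC box in 42.6%, an AP-1 site in 6.57%, a TATA box in 10.7% and a TEAD site in 11.9%. The ITGB6 window was 30% G and C, ITGAM 53.2%, ITGA1 62.0% and ITGA2 76.4%, against a median of 58.0% over all promoters. ITGB1, called higher in L1low cells and not shown, had a window at 78.4% with 3 GC boxes and 1 TEAD match. Another ITGB1 window was at 41.6%, with 3 TATA box matches. The windows shown thus give no rule that links base composition to direction. A match describes the letters in the window and was not tested as a site of any factor.

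Of ITGAV and its β partners other than ITGB1, ITGB3 and ITGB6 rose in L1low cells. ITGAV, ITGB5 and ITGB8 did not pass the test, though ITGB8 lay lower in every L1low library (log2 fold change -0.50). ITGB3 (ENSG00000259207, chromosome 17 from 47253827 to 47313743 on GRCh38) encodes the β chain of the vitronectin receptor. The 3 L1high libraries held 34, 34 and 27 of its reads, and the 3 L1low libraries 138, 131 and 137 (values here and below run from replicate 1 to replicate 3). Scaled to CPM, these were 1.60, 1.66 and 1.65 against 7.60, 7.30 and 7.74. Every L1low library lay above every L1high library, and the spread within each fraction was small beside the gap. The means were 1.63 ± 0.0276 and 7.54 ± 0.224 CPM (SD, n = 3 each), a 4.60-fold difference. On the log2 scale this was 2.20 (standard error 0.16, edgeR adjusted p = 7.38e-06), which ranked 2 by size among the 891 genes called higher. ITGB3 shares 2266 bp, or 33.2% of its exon bases, with ENSG00000259753, a protein-coding gene annotated on the same strand. The counting can assign such reads to either gene or to neither. ENSG00000259753 itself had counts of 42, 20 and 28 in L1high and 99, 117 and 101 in L1low libraries (log2 fold change 1.92, standard error 0.23, adjusted p = 0.000366). With both genes' counts added, ITGB3 had a log2 fold change of 2.08 (adjusted p = 5.9e-06).

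ITGB6 (ENSG00000115221, chromosome 2 from 160099667 to 160200313) is the β chain of the epithelial receptor αvβ6, known to activate latent TGF-β. Its level was 15.0, 16.4 and 13.1 CPM in the L1high libraries and 26.3, 25.8 and 23.7 CPM in the L1low libraries. The fractions did not overlap. The means were 14.8 ± 1.66 and 25.3 ± 1.35 CPM (SD, n = 3 each), 1.70-fold apart, with a log2 fold change of 0.76 (standard error 0.11, edgeR adjusted p = 0.00116). A same-strand lncRNA, ENSG00000285155, shares 16.7% of the ITGB6 exon bases, and it also rose (0.84, adjusted p = 0.0109). The log2 fold change with both added was 0.78.

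ITGAV (ENSG00000138448, chromosome 2 from 186590010 to 186680901), the α chain common to these receptors, stood at 65.2, 65.1 and 56.0 CPM in L1high and at 65.0, 70.7 and 54.3 CPM in L1low libraries. The fractions overlapped, and the lowest value of each fraction was that of its replicate 3. The log2 fold change was 0.03 with a 95% interval from -0.20 to 0.25 (edgeR adjusted p = 0.911), and it turned to -0.032 without L1high replicate 3 and to -0.059 without L1low replicate 2. ITGB5 (ENSG00000082781, chromosome 3 from 124761948 to 124901418), the β chain of another vitronectin receptor, stood at 103.4, 93.2 and 107.2 CPM in L1high and at 107.9, 113.9 and 110.8 CPM in L1low libraries. All L1low values were above all L1high values, with the closest pair nearly level, and the log2 fold change was 0.13 with a 95% interval from -0.03 to 0.29 (adjusted p = 0.311).

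ITGB1 and its main α partner by level, ITGA3, rose by small amounts. ITGB1 (ENSG00000150093, chromosome 10 from 32887273 to 33005792) stood at 274.0, 281.3 and 259.7 CPM in L1high and at 374.0, 362.0 and 312.8 CPM in L1low libraries. The fractions did not overlap, and replicate 3 was the lowest in both. Its log2 fold change came to 0.36 (standard error 0.08, edgeR adjusted p = 0.0127). ITGA3 (ENSG00000005884, chromosome 17 from 50055968 to 50090481), which with ITGB1 binds laminin-332, stood at 806.9, 721.3 and 862.4 CPM in L1high and at 953.1, 1024 and 985.4 CPM in L1low libraries. All L1low values lay above the L1high values, with a log2 fold change of 0.31 (standard error 0.07, edgeR adjusted p = 0.0216). Both calls were lost without L1high replicate 1 (ITGB1 adjusted p = 0.0675, ITGA3 0.0927) and without L1low replicate 2 (0.0894 and 0.132), while the log2 fold changes were 0.37 and 0.34 for ITGB1 and 0.32 and 0.28 for ITGA3.

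The processed pseudogene ITGB1P1 (ENSG00000269378) resembles the spliced ITGB1 transcript, and BWA, the aligner of the study, does not split reads at exon junctions. ITGB1P1 held 1463, 1328 and 1070 counts in L1high and 1568, 1533 and 1586 counts in L1low libraries. It rose in L1low cells (log2 fold change 0.39, edgeR adjusted p = 0.00435). Per kilobase of exon it stood at 108.8 ± 3.83 CPM in L1high and 143.0 ± 3.63 CPM in L1low cells (SD, n = 3), above ITGB1 itself at 18.7 ± 0.753 and 24.0 ± 2.23. The size of this gap depends on the length taken, since ITGB1 stood at 48.4 and 62.3 with its longest transcript. How many of its reads came from ITGB1 was not tested, and the level of ITGB1 is uncertain to that extent. With the counts of both added, ITGB1 had a log2 fold change of 0.37 (adjusted p = 0.00629).

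ITGA1 and ITGA2, which with ITGB1 form collagen receptors and whose genes lie 30130 bp apart on chromosome 5, were both lower in L1low libraries, and ITGA1 alone passed the test. ITGA1 (ENSG00000213949, from 52787916 to 52959209) stood at 53.2, 58.3 and 49.3 CPM in L1high and at 27.5, 22.8 and 20.9 CPM in L1low libraries. Even the highest L1low library was far below the lowest L1high library. The means were 53.6 ± 4.53 and 23.7 ± 3.39 CPM (SD, n = 3 each), 2.26-fold higher in L1high cells. The log2 fold change of ITGA1 was thus -1.18 (standard error 0.11, edgeR adjusted p = 5.89e-05). PELO, a ribosome rescue factor gene, begins at the same base as ITGA1 on the same strand and shares 499 bp (2.69%) of its exon bases. PELO stood at 62.95 ± 1.70 CPM in L1high and 49.0 ± 1.60 CPM in L1low cells (SD, n = 3), and its log2 fold change of -0.36 passed the test (edgeR adjusted p = 0.01), though not without L1high replicate 1 (0.0769) or L1low replicate 2 (0.0533). ITGA1 and PELO counted together had a log2 fold change of -0.68 (adjusted p = 0.000134). On the opposite strand, PELO-AS1 shares 0.59% of the ITGA1 exon bases and ENSG00000227227 shares 1.05% of those of ITGAV, and neither passed the test (edgeR adjusted p = 0.153 and 0.771).

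ITGA2 (ENSG00000164171, from 52989340 to 53094779) stood at 296.2, 295.5 and 275.2 CPM in L1high and at 255.3, 249.2 and 208.6 CPM in L1low libraries. The fractions did not overlap, and replicate 3 was again the lowest of each. The log2 fold change was -0.28 with a 95% interval from -0.46 to -0.11, and its edgeR adjusted p of 0.056 missed the threshold. It passed in 3 of 15 alternatives: in DESeq2 (adjusted p = 0.0317), without L1low replicate 1 (edgeR adjusted p = 0.0483) and with a replicate block (edgeR adjusted p = 0.00982).

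The fibronectin receptor chain ITGA5 (ENSG00000161638, chromosome 12 from 54395261 to 54419266) stood at 37.8, 37.6 and 43.4 CPM in L1high and at 39.9, 43.7 and 45.2 CPM in L1low libraries. The fractions overlapped, and the log2 fold change was 0.12 with a 95% interval from -0.08 to 0.32 (edgeR adjusted p = 0.467).

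ITGAM (ENSG00000169896, chromosome 16 from 31259967 to 31332892), the chain known as CD11b in myeloid cells, fell the most of the 10. It rested on few reads, with counts of 82, 60 and 61 in L1high and 25, 25 and 14 in L1low libraries. These were 3.87, 2.92 and 3.72 CPM against 1.38, 1.39 and 0.791 CPM. No L1low library reached the lowest L1high library. The means were 3.50 ± 0.508 and 1.19 ± 0.343 CPM (SD, n = 3 each), 2.93-fold higher in L1high cells, with a log2 fold change of -1.55 (standard error 0.25, edgeR adjusted p = 0.00305), which ranked 21 by size among the 657 genes called lower. ITGAX, the next integrin gene along the chromosome at a distance of 22241 bp and also known from leukocytes, fell too (log2 fold change -0.99, standard error 0.15, adjusted p = 0.00165).

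Of 15 leukocyte markers, 3 were measured. Their summed level was 178.1 to 194.9 CPM in the L1high libraries and 93.0 to 106.6 CPM in the L1low libraries, so it moved with ITGAM. S100A9, a calcium-binding protein that epithelial cells can also make, gave most of the sum (166.8 ± 9.83 against 83.9 ± 6.76 CPM, SD, n = 3) and fell with S100A8, while CD68 did not pass the test (8.67 against 10.05 CPM). The other 12, with PTPRC, CD14, CSF1R, SPI1 and the ITGAM partner ITGB2 among them, were looked for and not found in the count table. That table holds genes above 1 CPM in at least 2 libraries. The part of leukocyte RNA in the ITGAM result was not tested. All 8 epithelial markers were measured, with a summed level of 4673 to 5276 CPM in L1high and 5152 to 5558 CPM in L1low libraries, while single markers went both ways. The keratin gene KRT19 rose from 880.7 ± 60.6 to 1363 ± 61.3 CPM, and EPCAM (236.9 ± 27.0 to 192.9 ± 7.02) and CLDN4 (343.6 ± 30.2 to 270.0 ± 19.3) fell (SD, n = 3, edgeR adjusted p = 0.000136, 0.0496 and 0.0211). Of 10 fibroblast markers 4 were measured, at 269.5 to 309.0 CPM in L1high and 307.9 to 332.7 CPM in L1low libraries. Of these, LUM, the proteoglycan lumican, rose from 82.9 ± 6.13 to 142.1 ± 11.3 CPM (log2 fold change 0.78, edgeR adjusted p = 0.000135), while COL1A1 stood at 202.1 and 169.6 CPM and did not pass the test. The part of these markers in the results for the chains was not tested. Of 10 platelet and endothelial markers 2 were measured, at 17.0 to 19.2 and 18.2 to 20.4 CPM.

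**Figure D2:**
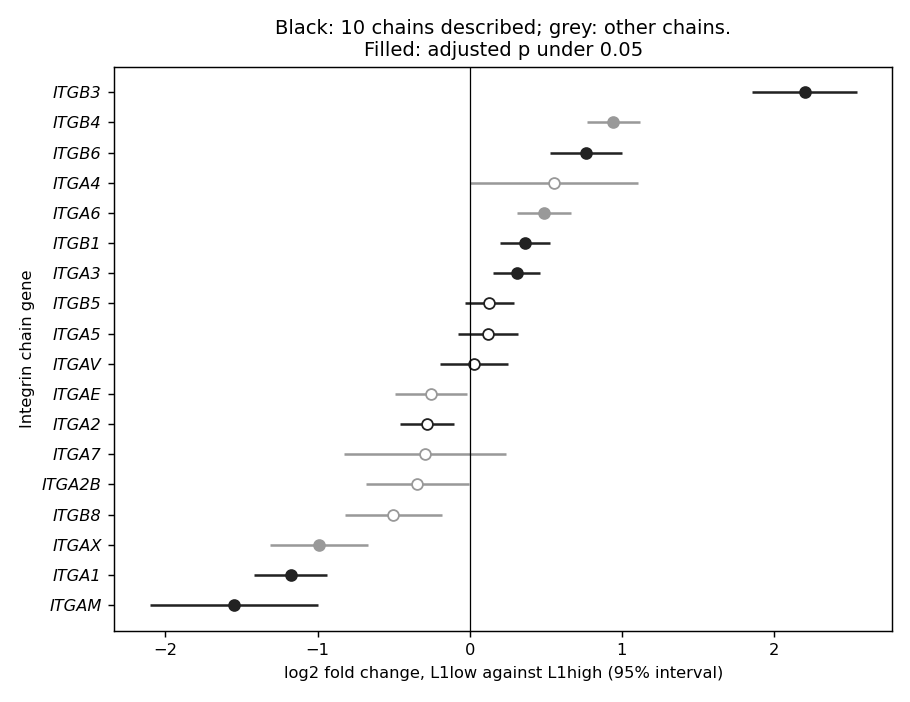
Log2 fold change of the 18 integrin chains measured, L1low against L1high, with 95% intervals from edgeR's quasi-likelihood fit. Black marks the 10 chains described, grey the other 8, and filled points an adjusted p under 0.05, with ITGB3 at the top (2.20) and ITGAM at the bottom (-1.55).

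The other 8 chains measured went both ways as well, 2 called higher and 1 lower, where 4.58% and 3.37% of all genes were. Their median log2 fold change was -0.27, against -0.01 over all genes and 0.13 over the 10 chains. The hemidesmosome pair ITGB4 (0.95, edgeR adjusted p = 2.48e-05) and ITGA6 (0.49, adjusted p = 0.0034) rose, and ITGAX fell. ITGB8, the remaining αv partner that activates latent TGF-β, stood at 103.4 ± 18.1 CPM in L1high and 73.1 ± 14.0 CPM in L1low cells (SD, n = 3), with no overlap and a log2 fold change of -0.50 that did not pass the test (adjusted p = 0.0588). It passed in 3 of 15 alternatives: without L1high replicate 3 (-0.62, edgeR adjusted p = 0.0131), in DESeq2 (adjusted p = 0.00696) and with a replicate block (edgeR adjusted p = 0.000198). ITGA4 (0.55), ITGAE (-0.25), ITGA7 (-0.29) and the platelet chain ITGA2B (-0.34), which pairs only with ITGB3, did not pass the test.

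To set chains side by side, CPM were divided by the length in kilobases of each gene's merged exons. On this scale the order of mean levels in L1high cells was ITGA3 (81.3 ± 7.25), ITGA2 (36.6 ± 1.51), ITGB1 (18.7 ± 0.753), ITGB5 (15.5 ± 1.11), ITGA5 (5.36 ± 0.446), ITGAV (3.21 ± 0.272), ITGA1 (2.89 ± 0.245), ITGB6 (2.56 ± 0.287), ITGAM (0.615 ± 0.0892) and ITGB3 (0.239 ± 0.00405) CPM per kilobase (SD, n = 3). ITGAV overlapped ITGA1, and ITGA1 overlapped ITGB6. In L1low cells ITGA3 (100.7 ± 3.64), ITGA2 (30.1 ± 3.21), ITGB1 (24.0 ± 2.23), ITGB5 (17.0 ± 0.46) and ITGA5 (5.82 ± 0.371) kept these places. ITGB6 (4.37 ± 0.234) then stood above ITGAV (3.27 ± 0.428), ITGB3 (1.11 ± 0.0326) overlapped ITGA1 (1.28 ± 0.183), and ITGAM (0.209 ± 0.0603) was last. ENSG00000259753 shares 33.2% of the ITGB3 exon bases, so reads from there can be missing from the ITGB3 level. The place of ITGB3 in both orders, and its share and ratio to ITGAV below, are uncertain to that extent. With the length of the longest transcript instead, ITGB1 stood above ITGA2 in both fractions and ITGAV above ITGB6 in L1low cells, since the ITGAV and ITGB1 annotations hold many exons outside their longest transcript.

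Within a library, the per-kilobase levels of ITGB3, ITGB5, ITGB6 and ITGB8 were summed as the β chains open to ITGAV, with ITGB1 left out because most α chains share it. ITGB5 made up the largest share in both fractions, 61.8 ± 5.29% in L1high and 62.4 ± 2.68% in L1low cells (SD, n = 3), with overlap. ITGB3 went from 0.951 ± 0.0350% to 4.05 ± 0.301% and ITGB6 from 10.2 ± 0.990% to 15.99 ± 0.473%. ITGB8 went from 27.1 ± 4.32% to 17.6 ± 2.70%. No library of one fraction overlapped the other for these 3 chains. ITGB3 thus stayed the smallest of the 4 shares in both fractions. Relative to ITGAV, the mean per-kilobase level of ITGB3 was 0.0749 ± 0.0072 in L1high and 0.342 ± 0.0562 in L1low cells, and that of ITGB6 0.798 ± 0.0396 and 1.34 ± 0.119. With longest-transcript lengths these ratios were 0.0354 and 0.162 for ITGB3 and 0.409 and 0.689 for ITGB6, so whether ITGB6 stood above ITGAV in L1low cells depends on the length taken.

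Among ITGA1, ITGA2, ITGA3 and ITGA5, α chains that pair with ITGB1 alone, ITGA3 took 64.4 ± 2.63% of the summed per-kilobase level in L1high and 73.0 ± 1.83% in L1low cells (SD, n = 3). The collagen receptor chains went the other way, ITGA2 from 29.1 ± 2.44% to 21.8 ± 2.02% (19.0% to 13.7% with longest-transcript lengths) and ITGA1 from 2.30 ± 0.311% to 0.928 ± 0.137%. ITGA5 was at 4.25 ± 0.236% and 4.22 ± 0.310%. The fractions did not overlap for the first 3 and overlapped for ITGA5. Relative to ITGB1, ITGA2 stood at 1.96 ± 0.0289 in L1high and 1.25 ± 0.0205 in L1low cells, ITGA1 at 0.155 ± 0.0072 and 0.0532 ± 0.0042, and ITGAV at 0.172 ± 0.0086 and 0.136 ± 0.0093, all without overlap. With longest-transcript lengths ITGA2 stood at 0.761 and 0.486 relative to ITGB1, below it in both fractions, and ITGA1 at 0.103 and 0.0354. A change of length scales both fractions alike and leaves their fold difference as it is. ITGA3 and ITGA5 relative to ITGB1 overlapped. Across the 8 shares, the exact two-sided permutation test over libraries gave p = 0.1 for the 6 without overlap (0.133 after Benjamini-Hochberg adjustment over the 8), 1.0 for ITGB5 and 0.9 for ITGA5. The smallest p that 3 against 3 libraries can give is 0.1, so no share could pass 0.05. Transcript shares do not measure the surface heterodimers.

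**Figure D3:**
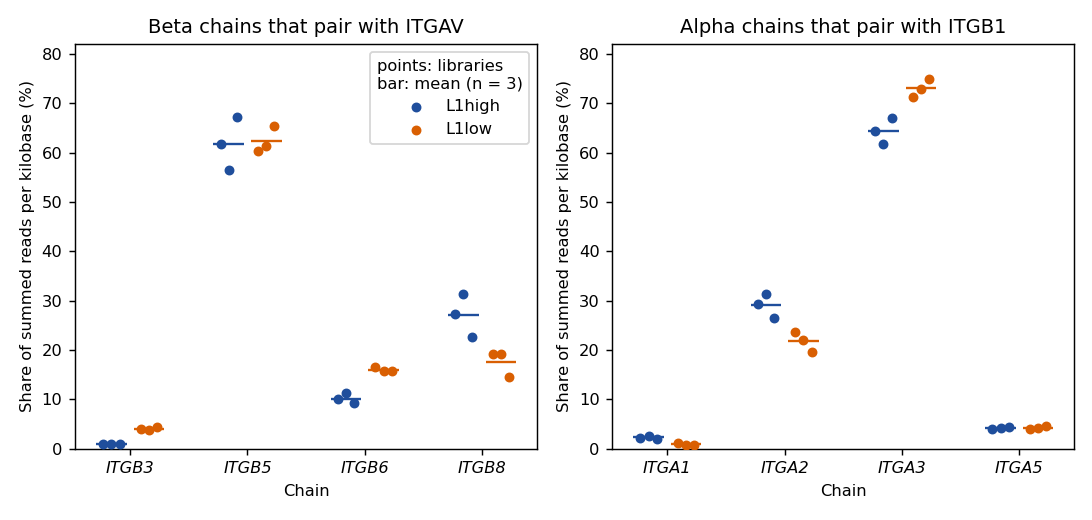
Share of each chain in the summed reads per kilobase of its set, in percent, for the β chains that pair with ITGAV (left, without ITGB1) and the α chains that pair with ITGB1 alone (right), with 3 L1high (blue) and 3 L1low (orange) libraries as points and their means as bars. The shares of ITGB3, ITGB6 and ITGA3 lay higher in every L1low library, those of ITGB8, ITGA1 and ITGA2 lower, and ITGB5 and ITGA5 overlapped.

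Ligand genes of these receptors were measured in the same libraries. These lists, and those of activators and membrane partners, were also chosen with earlier results of these data known. The shares over all genes are given beside their counts as background only. Of 14 RGD ligands, 6 were called higher and 1, the sorting marker L1CAM, lower, where 4.58% of all genes were called higher and 3.37% lower, and the median log2 fold change was 0.43. CCN2 (1.87), THBS1 (1.14) and TGFBI (1.06), matrix proteins bound by αv integrins, led the rises. Of 8 collagen genes taken as ligands of ITGA1 and ITGA2, 5 were called higher (against the same 4.58%), led by COL5A1 (1.13), COL5A2 (0.66), COL4A1 and COL4A2 (both 0.55), while the receptor chain ITGA1 fell. COL1A1, with the highest CPM of the 8, was the 1 gene with a negative log2 fold change (-0.25). It stood at 202.1 CPM in L1high and 169.6 CPM in L1low cells and did not pass the test. Of 7 laminin genes taken as ligands of ITGA3, 2 were called higher, again against 4.58%, and LAMB3, which encodes the β chain of laminin-332, had a log2 fold change of 0.83. LAMA3, which encodes the α chain of laminin-332, was level, at 360.6 ± 5.17 CPM in L1high and 360.7 ± 13.2 CPM in L1low cells (SD, n = 3). The edgeR adjusted p-values of the called genes named in these lists lay between 2.87e-06 and 0.00524.

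Of 27 genes whose products activate integrins or tie them to actin, 6 were called higher, where 4.58% of all genes were, with a median log2 fold change of 0.18. The tensins TNS1 (1.53) and TNS3 (0.83), which bind β chain tails, and the focal adhesion protein ZYX (0.52) were among them. Of 14 lateral partners in the membrane, CAV1, which encodes caveolin-1, was called higher (0.79, edgeR adjusted p = 9.22e-05), and the median was 0.05. This 1 call of 14 is near the 7.95% called over all genes and is no result about the list.

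**Figure D4:**
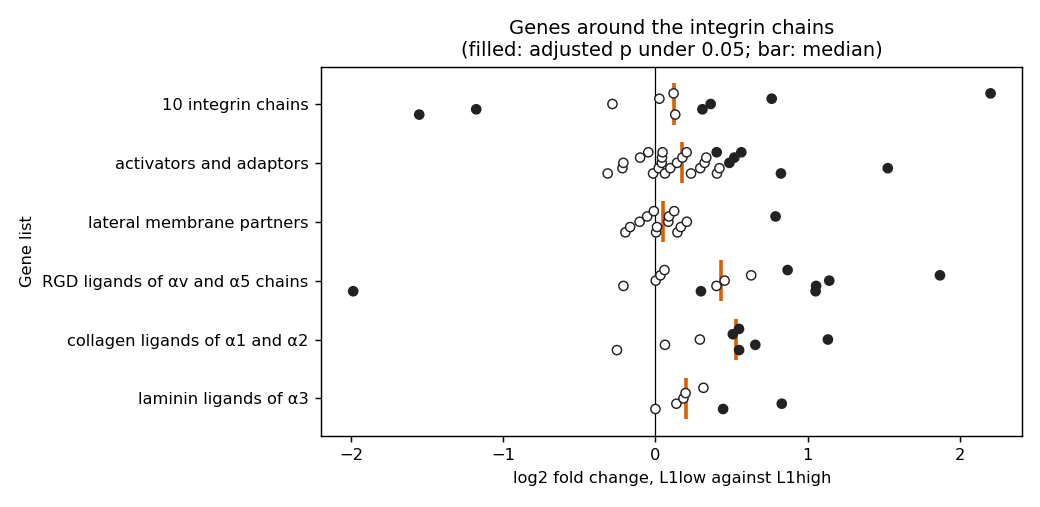
Log2 fold change, L1low against L1high, of each measured gene in the lists around the 10 integrin chains, with filled points for an edgeR adjusted p under 0.05 and orange bars for the median of each list. The other integrin chains are not drawn, and the medians of the lists drawn ran from 0.05 in the lateral membrane partners to 0.53 in the collagen ligands, and the lone filled point at the far left of the RGD ligands is L1CAM.

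The genes whose profile over the 6 libraries was most like that of ITGB3 were MMP10, a matrix metalloproteinase, CCN2 and CALML3-AS1. Their root mean square differences from ITGB3 in mean-centred log2 CPM were 0.096, 0.15 and 0.16. MMP10 ran at 3.44, 3.36 and 3.41 CPM in L1high and at 13.2, 15.0 and 14.2 CPM in L1low libraries. Most like ITGAM were SPINK13 (0.17), the placental alkaline phosphatase gene ALPP (0.21) and ENSG00000284987 (0.22), which shares exon bases with L1CAM on the same strand. The comparison ran over 17101 genes, and with 6 libraries in 2 fractions it follows mainly the size of the difference between fractions.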

How the data were processed

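The study sequenced stranded mRNA libraries of sorted L3.6pl cells, 3 L1high and 3 L1low, grouped by the labels. The authors mapped the read pairs to GRCh38 with BWA, used featureCounts with the Ensembl 94 annotation, and deposited raw counts; versions and the strand and multi-mapping options are not given in the sources used here. Without the strand option, reads of genes that overlap on opposite strands cannot be told apart. The deposited table holds genes above 1 CPM in at least 2 libraries. Symbols, coordinates and exon lengths came from GENCODE release 44, which matched 19344 of 19469 identifiers.

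The fractions were then compared on these deposited counts by edgeR 4.0.16 under R 4.3.3 (filterByExpr, which kept 19467 genes, TMM factors, quasi-likelihood test, Benjamini-Hochberg adjustment). All 6 libraries were used. The study's own table left out L1high replicate 3, and without it the same 6 chains were called. The standard error is the size of the log2 fold change divided by the square root of F. Shares were tested with scipy 1.17.1. The code of the fit was also run on simulated counts with the same spread for all genes, which is no measure of how it does on these libraries. The closest library pair differed by more than counting noise (chi-square 3.66 per degree of freedom). Log2 CPM of single libraries used a prior count of 2.

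The members and lists were chosen with earlier results of these data known. Genes named are the 10 chains, the other measured chains, L1CAM, genes that share exons with a chain, pseudogenes of a chain, and up to 4 called genes of each list with no overlap and an average log2 CPM of at least 1, by size, with the 3 genes most like ITGB3 and like ITGAM. Some genes that this rule takes are not reported here. Cell type markers named singly, and LAMA3 and COL1A1 among the ligands, were picked after their values were seen. The alternatives were each library left out, a replicate block, DESeq2 1.42.0, other scalings, no filter or at least 10 counts in every library, overlapping genes added, longest-transcript lengths for the shares and, chosen after seeing the data, ITGB1P1 counts added to ITGB1 and longest-transcript lengths for the chain ratios.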

Additional observations from a re-analysis of the deposited data

How the results depend on the processing

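Of 848 values recomputed over 61 results, 810 were counted as held. For a single gene this means the same direction and call, and for other values a move within a set limit. That limit was wide for counts. It took in a fall from 6 to 4 of the 10 chains called (without L1high replicate 1) and a rise from 891 to 1220 genes called higher (replicate block). ITGB3, ITGB6, ITGA1 and ITGAM were called in all 15 alternatives, with log2 fold changes of 2.08 to 2.23, 0.70 to 0.84, -1.30 to -0.68 and -1.68 to -1.32. ITGAV, not called in any, ran from -0.059 (without L1low replicate 2) to 0.14 and was -0.032 without L1high replicate 3. Leaving out a library gave 627 to 1473 called genes, 393 to 859 higher and 234 to 614 lower (627 without L1low replicate 2, 674 without L1high replicate 1), and 2 to 4 of the 10 chains called higher. Called lower were 1 to 2 of the other chains and 0 to 1 of the lateral partners and of the collagen ligands, and called in all 1 to 2 of the lateral partners, with ITGB8 joining ITGAX without L1high replicate 3 and the extra partner and collagen calls without L1high replicate 2. The same-numbered libraries deviated together with correlations of 0.113, 0.099 and 0.29, not all over 0.1, so the numbers were not taken as pairs, though 5 of 6 libraries correlated best with their own number. A replicate block gave 2363 calls, 1143 of them lower (51.6% higher against 57.6% without it), 10 among activators and adaptors with 1 lower, 2 other chains lower, and ITGA2 called (edgeR adjusted p = 0.00982, against 0.056 without it and up to 0.204 over the alternatives). DESeq2 also called 2 other chains lower. The ITGB3 share rose by 2.47 percentage points with longest-transcript lengths against 3.10. The ITGB5 share difference ran from -2.07 to 3.22 (it turned to -0.951 without L1low replicate 3) and that of ITGA5 from -0.198 to 0.104 (0.0864 without L1high replicate 3 and 0.0160 without L1low replicate 2). The causes were not tested. ITGAM and ITGB3 rest on the fewest counts of the 10 chains.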
